A study of Mus musculus with 16 samples.

Results

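Dp16 mice carry an added copy of a segment of mouse chromosome 16, and the mRNA of their brain cortex was compared with that of wild-type (WT) C57BL/6J mice. The comparison used every gene of the count table in 8 of the 16 libraries of the series, 4 from Dp16 mice and 4 from WT mice. Each group held 2 males and 2 females aged 5 months, with 1 library per animal, and neither group carried the 5xFAD amyloid transgenes. The strain of the Dp16 mice and the litters of both groups were not given in the sources used here. The other 8 libraries came from 4 5xFAD-Dp16 mice, which have both the duplication and the transgenes, and 4 5xFAD mice, which have the transgenes alone. They shared the estimate of spread between animals and served at the end as a second look at the same segment.

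The duplicated segment corresponds to a large part of human chromosome 21, whose extra copy causes Down syndrome. A gene present in 3 copies in place of 2 has a copy ratio of 1.5, and its transcript can follow that ratio, fall short of it or pass it. The segment holds genes for both chains of the type I interferon receptor and for a chain of the type II receptor, the kinase gene Dyrk1a, the calcineurin inhibitor gene Rcan1, the amyloid precursor gene App and the superoxide dismutase gene Sod1, all long studied in models of trisomy. The labels name the genotype only, so the limits used here are those generally given for this duplication, with Lipi as the first gene and Zbtb21 as the last (chromosome 16, 75540514 to 97962622, GRCm38). The count table lists 384 genes there, of which 147 are protein-coding.

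Between 14181035 and 20385010 reads were counted per Dp16 library and between 12483286 and 18556592 per WT library. Sex-specific transcripts fitted the sex on every label. Cortical neuron markers were abundant in both groups: the 15 excitatory neuron markers summed to 3649 to 6722 CPM, the read count scaled to library size, in Dp16 animals and 3340 to 6266 CPM in WT animals. The mitochondrial share separated the groups and the number of genes detected nearly did. Mitochondrial transcripts took 8.68 to 10.3% of reads in Dp16 and 7.71 to 8.16% in WT, and at equal depth 20077 to 21136 genes were detected in Dp16 libraries, against 18854, 18331, 19088 and 20294 in WT replicates 1 to 4. WT replicate 4 (Spearman's rho 0.43 across genes) and Dp16 replicate 3 (rho 0.26) had relatively more reads on long genes, while the rho of the other 6 libraries ran from -0.36 to -0.04. The part of these differences in the results was not tested, beyond the fits without each library and with the length trend removed. In whole cortex, fewer cells of a type and less RNA per cell cannot be told apart.

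The segment was transcribed at a higher level in every Dp16 animal than in any WT animal. Its genes took 0.924, 1.00, 0.912 and 1.02% of counted reads in Dp16 replicates 1 to 4, against 0.670, 0.662, 0.667 and 0.668% in WT replicates 1 to 4. The 4 WT animals lay within a very narrow range, and the lowest Dp16 animal lay well above it. The median log2 level of the 105 segment genes that could be tested, relative to the WT mean, was 0.58, 0.65, 0.45 and 0.66 in the Dp16 animals and 0.02, 0.07, 0.01 and -0.01 in the WT animals. In the fitted model the median log2 difference between Dp16 and WT was 0.55, or 1.46-fold, with quartiles of 1.29-fold and 1.64-fold. Of the 105 genes, 94 stood higher in Dp16 and 11 lower, while 50.1% of the 16914 other genes tested stood higher and their median was 0.00. The filter on low counts let 8 of the 105 genes pass only through animals with the duplication. Among the 97 that reached the minimum without them, 89 stood higher in Dp16 and the median was also 1.46-fold.

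**Figure D1:**
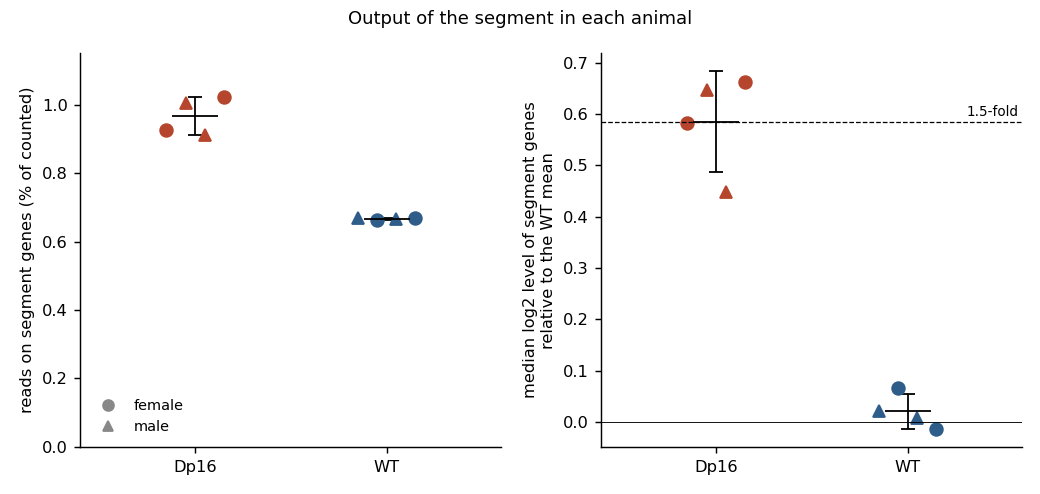
Left, the percent of counted reads that fell on segment genes, and right, the median log2 level of the 105 tested segment genes relative to the WT mean, for each Dp16 and WT animal; circles are females, triangles males, and bars give the mean and SD of 4 animals. The Dp16 animals sit between 0.912 and 1.02% on the left, all above the WT animals at 0.662 to 0.670%, and around the dashed line for 1.5-fold on the right.

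Gene by gene, 2 segment genes passed edgeR's quasi-likelihood test after Benjamini-Hochberg adjustment over all 17019 genes, with a threshold of 0.05, and both rose in Dp16. Over all genes 3 passed, or 0.0176%, and a gene is named as called here where it passed this edgeR test; DESeq2 called 35 genes, 19 of them in the segment. Jam2, which encodes a junctional adhesion molecule of endothelial and other cells (chromosome 16, 84774123 to 84825928), stood at 103, 94.96, 116 and 89.8 CPM in Dp16 and at 53.3, 62.4, 59.8 and 57.7 CPM in WT. Its lowest Dp16 animal was above its highest WT animal, and the log2 difference was 0.79 (SE 0.12, adjusted p = 0.0322). Morc3, which encodes a nuclear ATPase that binds chromatin (93832121 to 93876073), stood at 36.9, 37.5, 37.8 and 41.6 CPM in Dp16 and at 18.8, 21.8, 26.8 and 20.2 CPM in WT. The groups again did not overlap, and the log2 difference was 0.81 (SE 0.13, adjusted p = 0.0322). Both calls were lost in most fits that left out a library. Jam2 passed in 1 of the 8 such fits (without Dp16 replicate 4) and Morc3 in 1 (without WT replicate 3). Over all 17 alternative fits the log2 difference ran from 0.69 to 0.90 for Jam2 and from 0.72 to 0.92 for Morc3.

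Many other segment genes separated the animals by genotype without reaching that threshold. In 37 of the 105 genes, or 35.2%, every Dp16 animal was above every WT animal, against 1.44% of all genes tested, and in 0 segment genes was every Dp16 animal below, against 0.852% of all genes. At an unadjusted p under 0.05, which 3.88% of all genes met, 54 segment genes stood higher in Dp16, against 2.48% of all genes, and 0 lower, against 1.4% of all genes. The median SE of a segment gene was 0.25, while the log2 of 1.5 is 0.58. The 95% interval of the fold held 1.5 for 95 of the 105 genes, and for 45 of these it also held 1. At 10 CPM or more, 57 of 59 genes stood higher, with a median log2 difference of 0.57 and quartiles of 0.46 and 0.68. The 46 genes under 10 CPM had a median of 0.52 and ranged from -1.36 to 6.98.

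The difference was of like size along the segment. Cut into 3 stretches of equal length, the segment had a median of 1.48-fold over the 16 tested genes of the proximal stretch, 1.44-fold over the 26 of the middle one and 1.48-fold over the 63 of the distal one. The nearest tested protein-coding genes on the proximal side were Gbe1, encoding glycogen branching enzyme, and the axon guidance receptor genes Robo1 and Robo2, with log2 differences of -0.14 (SE 0.18), -0.19 (SE 0.29) and -0.13 (SE 0.15). On the distal side B230307C23Rik had 0.07 (SE 0.35) and A630089N07Rik -0.09 (SE 0.43). The groups overlapped in all 5 of these genes, and over the 416 genes tested elsewhere on chromosome 16 the median was 0.00.

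**Figure D2:**
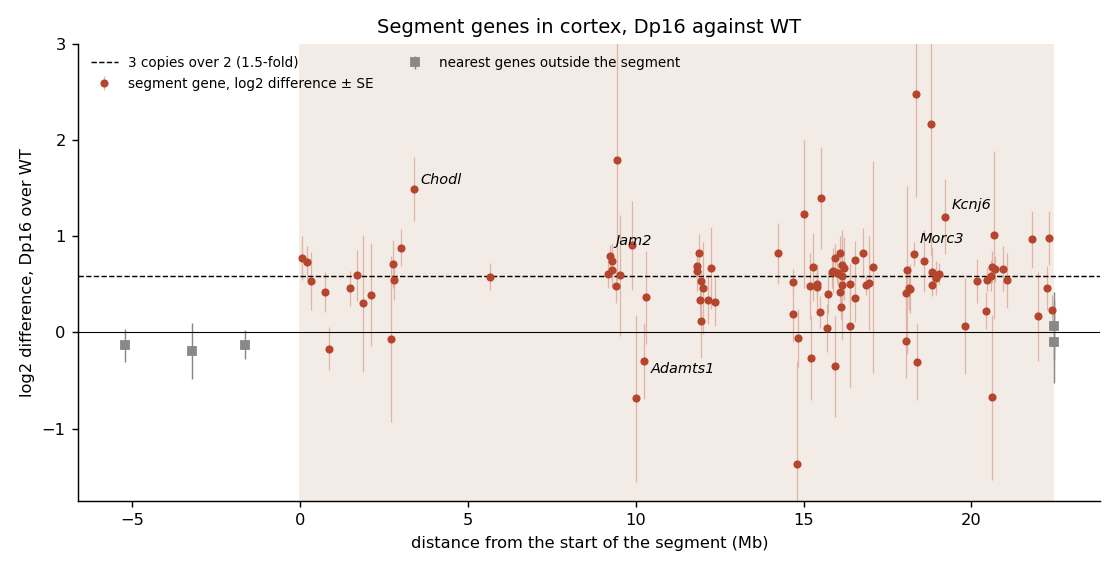
Log2 difference between Dp16 and WT, with its SE, for tested segment genes by distance in Mb from the segment's start (red circles, shaded area) and for the nearest tested genes outside it (grey squares); the dashed line marks 1.5-fold. Ripk4 (6.98) and Gm31258 (4.55) lie above the axis, and the circles gather around the dashed line along the whole 22.4 Mb while the squares lie near 0.

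The 4 receptor subunit genes for interferons and interleukin-10 were all higher in Dp16, with a median of 1.55-fold and 3 of 4 without overlap. All 4 had an unadjusted p under 0.05 in edgeR's quasi-likelihood test and 0 passed its adjusted threshold, while DESeq2 called Ifnar1 and Ifngr2. Ifnar1, which encodes a chain of the type I interferon receptor, stood at 45.7, 46.3, 53.7 and 54.4 CPM in Dp16 and at 27.0, 30.5, 23.3 and 37.3 CPM in WT (log2 difference 0.77, SE 0.14, adjusted p = 0.136). Ifnar2, for the other chain, stood at 22.1, 19.4, 21.8 and 25.1 CPM in Dp16 and at 10.6, 14.1, 13.6 and 19.1 CPM in WT (0.63, SE 0.16). The highest WT value of both genes came from replicate 4, and for Ifnar2 it lay just under the lowest Dp16 animal. Ifngr2, for the signalling chain of the interferon gamma receptor, stood at 100.01, 109, 98.6 and 107 CPM in Dp16 and at 77.7, 73.8, 57.9 and 60.2 CPM in WT (0.62, SE 0.12, adjusted p = 0.141). Il10rb, for a chain shared by the receptors of interleukin-10 and of interferon lambda, stood at 15.8, 11.6, 12.7 and 7.82 CPM in Dp16 and at 8.45, 8.75, 8.30 and 5.26 CPM in WT (0.64, SE 0.23), with Dp16 replicate 4 inside the WT range. Ifnar2 and Il10rb share an overlapping same-strand gene model, so their reads may have been split.

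The antiviral and immune genes of the segment were sparse in cortex. Mx1, the classic interferon-induced GTPase gene, and Tmprss2 were too low to test. Its neighbour Mx2 averaged 0.939 ± 0.405 CPM in Dp16 and 0.854 ± 0.483 CPM in WT (SD, n = 4 each), a difference of 0.17 (SE 0.46) whose sign turned without Dp16 replicate 4 or WT replicate 4. Samsn1, an adaptor of lymphoid cells, averaged 3.45 ± 0.716 CPM in Dp16 and 2.43 ± 1.19 CPM in WT, and the groups overlapped. Ripk4, a receptor-interacting kinase known from skin (97741933 to 97763787), was among the 8 genes that passed the filter on low counts only through animals with the duplication: it had 19, 8, 25 and 10 reads in Dp16 and 0 reads in each WT library. Its mean of 0.891 ± 0.482 CPM in Dp16 was at least 19.1-fold higher than the floor of 0.0466 CPM that 3 counts over the pooled WT reads allow, although its adjusted p was 0.195 with edgeR; DESeq2 called it. The 5xFAD-Dp16 libraries had 21, 48, 20 and 17 Ripk4 reads and the 5xFAD libraries 4, 0, 3 and 6, so the gene was not silent in all animals without the duplication.

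**Figure D3:**
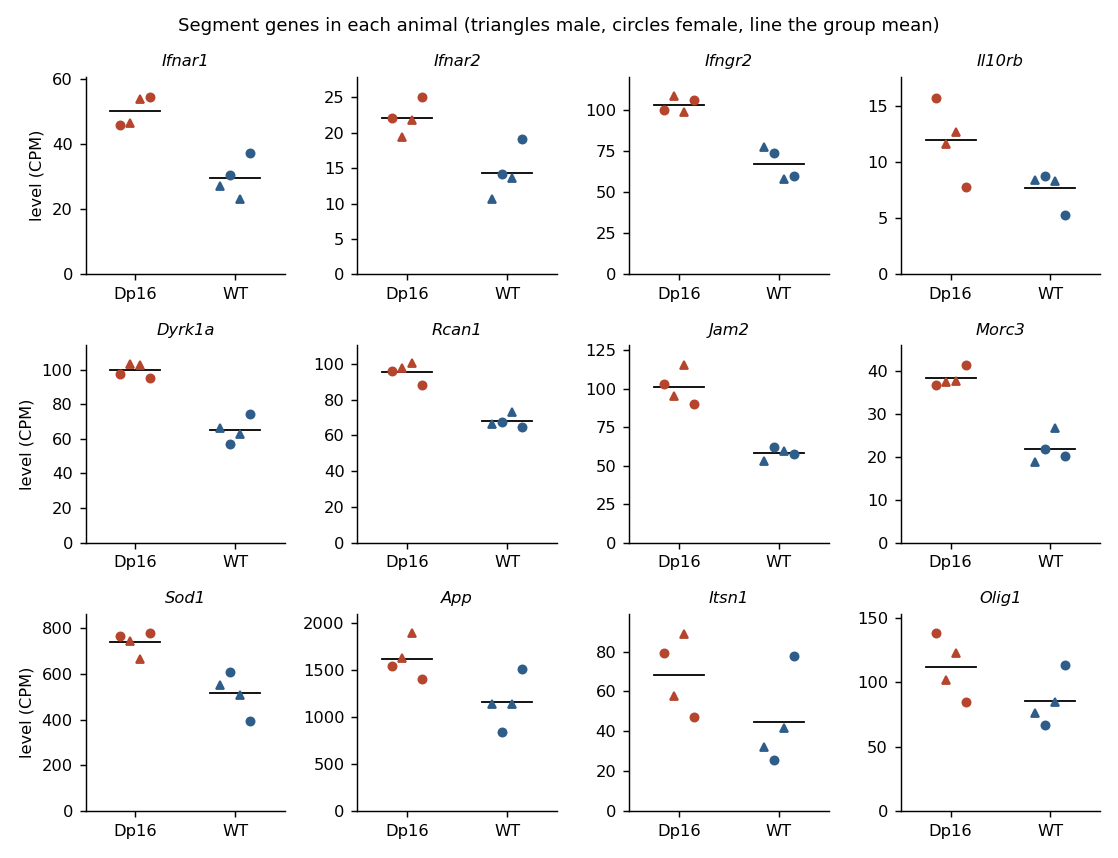
Level in CPM of 12 segment genes in each Dp16 and WT animal; lines mark group means, circles are females and triangles males. Ifnar1, Ifnar2, Ifngr2, Dyrk1a, Rcan1, Jam2, Morc3 and Sod1 show no overlap between the groups, and Il10rb, App, Itsn1 and Olig1 do.

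Among kinase and calcineurin genes, 6 of 7 tested were higher in Dp16, with a median of 1.46-fold and 4 without overlap. Of the 7, DESeq2 called Dyrk1a, Rcan1 and Ttc3, while edgeR's adjusted test called 0. The fit without a filter on low counts called Tiam1, and the fit with the length trend removed called Dyrk1a. Dyrk1a, a kinase that phosphorylates splicing factors and the NFAT transcription factors, stood at 97.3, 103, 103 and 95.2 CPM in Dp16 and at 66.3, 56.8, 62.7 and 74.4 CPM in WT. The lowest Dp16 animal lay well above the highest WT animal, and the log2 difference was 0.61 (SE 0.11, adjusted p = 0.107). Rcan1, which inhibits the phosphatase calcineurin, stood at 96.3, 97.4, 100.3 and 87.9 CPM in Dp16 and at 66.6, 67.3, 73.1 and 64.4 CPM in WT (0.49, SE 0.11, adjusted p = 0.24). Ttc3, an E3 ubiquitin ligase gene, averaged 1269 ± 90.3 CPM in Dp16 and 903 ± 71.4 CPM in WT without overlap (0.49, SE 0.10). Ttc3 overlaps Pigp on the opposite strand, and the strand setting of the counting is not given, so the pair may share reads. Tiam1, an activator of Rac, averaged 34.5 ± 8.84 CPM in Dp16 and 19.8 ± 11.3 CPM in WT, and there WT replicate 4 at 36.4 CPM lay above 3 of the Dp16 animals. Outside the segment, the 14 tested genes of calcineurin and NFAT signalling split into 6 higher and 8 lower, with a median of -0.00 and 0 called by edgeR or DESeq2.

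Of 20 tested genes for transcription and chromatin, 19 stood higher in Dp16, with a median of 1.41-fold and 4 without overlap. Beside Morc3, which edgeR also called, DESeq2 called Brwd1 and Gabpa of this group. Hmgn1, a nucleosome-binding protein gene, averaged 158 ± 15.7 CPM in Dp16 and 106 ± 21.3 CPM in WT (0.59, SE 0.16), and Brwd1, a bromodomain protein gene, averaged 95.3 ± 8.70 CPM in Dp16 and 65.2 ± 8.44 CPM in WT (0.55, SE 0.12). Neither group pair overlapped. Son, for a splicing factor of nuclear speckles, stood at 178, 185, 176 and 157 CPM in Dp16 and at 144, 116, 158 and 161 CPM in WT. Its fold of 1.20 was the only one whose 95% interval lay above 1 and below 1.5 at once. The oligodendrocyte lineage factors Olig1 and Olig2 did not separate the groups: Olig1 averaged 112 ± 23.5 CPM in Dp16 and 85.1 ± 20.2 CPM in WT, and Olig2 averaged 26.8 CPM in Dp16 and 26.1 CPM in WT. The interval of Olig2 reached no higher than 0.57 on the log2 scale, just under the 0.58 of a 1.5-fold difference. Markers of oligodendrocyte precursors outside the segment had a median log2 difference of 0.14, with 7 of 11 higher and 0 called by edgeR or DESeq2, and those of myelinating cells -0.04, with 5 of 15 higher.

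All 9 tested genes for synapses, endocytosis and channels stood higher in Dp16, with a median of 1.59-fold, but 2 separated the groups, Bace2 and C2cd2. Of the 9, edgeR's adjusted test and DESeq2 called 0. The fit without a filter on low counts called Itsn1, Kcnj6 and Pcp4, and the fit with the length trend removed called App and Pcp4. App stood at 1537, 1628, 1889 and 1404 CPM in Dp16 and at 1131, 841, 1140 and 1507 CPM in WT (0.48, SE 0.18). WT replicate 4 lay above the lowest Dp16 animal. The same animal was the highest WT sample for Synj1, the synaptic phosphatase gene, at 199 CPM against 132, 88.9 and 143 CPM in WT replicates 1 to 3, and for Itsn1, an endocytic scaffold gene, at 77.9 CPM against 32.3, 25.8 and 41.7 CPM. Synj1 averaged 195 ± 22.3 CPM in Dp16 and 141 ± 45.2 CPM in WT, and Itsn1 68.3 ± 19.0 CPM in Dp16 and 44.4 ± 23.2 CPM in WT. Pcp4, a calmodulin regulator of neurons, averaged 1087 ± 280 CPM in Dp16 and 686 ± 176 CPM in WT (0.67, SE 0.24). Per kilobase of transcript it was the most abundant segment gene, at 1696 CPM per kb in Dp16 and 1071 CPM per kb in WT. Bace2, which encodes an aspartyl protease that cleaves the amyloid precursor, stood at 8.16, 7.53, 9.11 and 8.06 CPM in Dp16 and at 3.51, 2.48, 4.602 and 6.05 CPM in WT without overlap (0.97, SE 0.30, adjusted p = 0.764). The 14 tested App paralogs and secretase genes outside the segment had a median of 0.05, with 8 higher and 0 called by edgeR or DESeq2.

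Of 9 tested genes for adhesion, junctions and matrix, 7 stood higher, with a median log2 difference of 0.58 and 4 without overlap, Jam2 described above among them. Ncam2, a neural adhesion molecule gene, stood at 74.8, 103, 91.0 and 99.6 CPM in Dp16 and at 59.1, 51.7, 62.9 and 73.0 CPM in WT without overlap (0.58, SE 0.14). Dscam, the cell adhesion gene named for Down syndrome, averaged 22.8 ± 7.27 CPM in Dp16 and 15.5 ± 6.85 CPM in WT, and the groups overlapped (0.54, SE 0.29). Cxadr, for the coxsackievirus and adenovirus receptor at tight junctions, averaged 12.8 ± 1.13 CPM in Dp16 and 7.79 ± 3.32 CPM in WT without overlap.

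The 11 tested genes for mitochondria and metabolism all stood higher in Dp16, with a median of 1.44-fold and 5 without overlap. Of the 11, edgeR's adjusted test called 0, DESeq2 called Mrpl39 and the fit without a filter on low counts called Atp5j and Mrps6. With the length trend removed, Sod1, Atp5j, Atp5o and Mrps6 were called. Sod1, the cytosolic superoxide dismutase gene, stood at 769, 746, 664 and 782 CPM in Dp16 and at 553, 608, 508 and 394 CPM in WT (0.53, SE 0.14, adjusted p = 0.586). Atp5j, for a subunit of the ATP synthase stalk, averaged 389 ± 48.6 CPM in Dp16 and 249 ± 49.8 CPM in WT without overlap (0.65, SE 0.17), and Atp5o, for another subunit of that stalk, averaged 683 ± 118 CPM in Dp16 and 487 ± 140 CPM in WT with overlap (0.50, SE 0.22). Cbr1, a carbonyl reductase gene, averaged 236 ± 50.5 CPM in Dp16 and 179 ± 47.5 CPM in WT (0.41, SE 0.25). In Sod1, Atp5j, Atp5o and Cbr1 WT replicate 4 was the lowest animal, in contrast to App, Synj1 and Itsn1. The former are 641 to 1237 bases long and the latter 7234 to 19992. As given above, WT replicate 4 had relatively more reads on long genes (rho 0.43). The part of length in this contrast was not tested. The tested partner genes present in 2 copies, which encode other subunits of ATP synthase and of the CCT chaperonin, showed no such direction: 3 of 19 were higher and 16 lower, with a median log2 difference of -0.06 and 0 called by edgeR or DESeq2.

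Of 16 tested genes for protein turnover and RNA, 15 stood higher, with a median of 1.49-fold and 8 without overlap. That was the largest count of any group but not the largest share, which was 3 of 4 for the receptor genes. Of the 16, DESeq2 called Cct8, Dnajc28, Ltn1, Rwdd2b and Tmem50b, while edgeR's adjusted test called 0. The fit without a filter on low counts called Dnajc28, Hspa13, Tmem50b and Wrb. With the length trend removed, Cct8, Rwdd2b and Tmem50b were called. Cct8, the CCT chaperonin subunit of the segment, stood at 294, 333, 284 and 342 CPM in Dp16 and at 247, 205, 217 and 198 CPM in WT (0.54, SE 0.11, adjusted p = 0.206). Tmem50b, a membrane protein gene, averaged 149 ± 12.3 CPM in Dp16 and 97.1 ± 4.72 CPM in WT, and had the smallest p of the genes that did not pass (0.62, SE 0.11, adjusted p = 0.0867). Wrb, for a receptor that inserts tail-anchored proteins into the endoplasmic reticulum, averaged 151 ± 23.04 CPM in Dp16 and 94.3 ± 19.0 CPM in WT, and Hspa13, a heat shock protein gene, 131 ± 27.1 CPM in Dp16 and 79.4 ± 6.20 CPM in WT. Both were without overlap, with log2 differences of 0.68 and 0.73. Markers of the unfolded protein response outside the segment had a median of -0.10, with 6 of 20 higher and 0 called by edgeR or DESeq2.

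The segment genes furthest from the copy ratio were mostly those with few reads. Among genes at a mean log2 CPM of at least 1, Chodl, a chondrolectin gene, was the highest: it stood at 4.26, 4.85, 5.92 and 5.49 CPM in Dp16 and at 1.13, 1.98, 1.51 and 2.58 CPM in WT. Its fold of 2.81 had an interval above 1.5 (log2 0.79 to 2.19), and its adjusted p was 0.254 with edgeR. DESeq2 called Chodl, as did the fit without a filter on low counts. Kcnj6, for a G-protein-gated potassium channel of neurons, averaged 8.19 ± 2.26 CPM in Dp16 and 3.57 ± 2.12 CPM in WT (1.21, SE 0.39), C2cd2 averaged 9.27 ± 1.13 CPM in Dp16 and 4.96 ± 1.91 CPM in WT (0.98, SE 0.28), and Cyyr1 averaged 3.51 ± 1.14 CPM in Dp16 and 1.91 ± 1.42 CPM in WT. At the other end were Cldn14, a tight junction claudin gene, at 2.03 ± 0.218 CPM in Dp16 and 2.53 ± 0.938 CPM in WT, and Adamts1, a matrix protease gene, at 5.49 ± 2.29 CPM in Dp16 and 6.78 ± 2.25 CPM in WT. Urb1 (-0.27), Gm9843 (-0.17) and Setd4 (-0.09) also had negative log2 differences, and the groups overlapped in all 5. The 95% interval held 1 and ended below 1.5 for 6 genes: Cldn14, Adamts1, Gm9843, Olig2, Paxbp1 and Zbtb21, of which Paxbp1, Olig2 and Zbtb21 are named after their values were seen.

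The remaining 279 genes of the segment could not be tested. Of these, 215 had 0 reads in all 8 libraries, and 64 had reads below the filter. Together the untested genes collected 140, 137, 186 and 177 reads in Dp16 replicates 1 to 4 and 68, 76, 31 and 98 reads in WT replicates 1 to 4. In CPM the sums were 8.98 ± 0.916 in Dp16 and 4.34 ± 1.88 in WT (SD, n = 4 each), without overlap and at a ratio of 2.07. By type, 88 of the 147 protein-coding genes were tested, with a median log2 difference of 0.58 and 82 higher, and 11 of the 97 lncRNA genes, with a median of 0.50 and 8 higher.

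Outside the segment 1 gene of 16914 passed the test, the nonagouti gene a on chromosome 2 (154791402 to 155051012), whose product is a paracrine antagonist of melanocortin receptors best known from coat colour, and C57BL/6J mice carry its nonagouti allele. It had 41, 45, 98 and 41 reads in Dp16 and 0 reads in each WT library (adjusted p = 0.0187). Its mean of 3.12 ± 1.28 CPM in Dp16 was at least 66.9-fold higher than the floor of 0.0466 CPM over the pooled WT reads. In the other animals too the carriers of the duplication had more reads: the 5xFAD-Dp16 libraries had 49, 38, 51 and 51, and the 5xFAD libraries 0, 0, 0 and 5. Like Ripk4, the gene thus passed the filter on low counts only through animals with the duplication. The strain of the Dp16 mice was not given, so a difference of strain at this gene and an effect of the duplication cannot be told apart. The call was lost without Dp16 replicate 1, Dp16 replicate 3 or WT replicate 1. In the fit to the 8 libraries alone none of the 3 called genes passed.

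No other gene off the segment passed edgeR's test, and DESeq2 called 16, nonagouti among them. Of the genes off the segment, 208 had every Dp16 animal above every WT animal, or 1.23% of them, and 145 every Dp16 animal below, or 0.857%. The share of segment genes without overlap, 35.2%, is to be read against these. The genes named here are the protein-coding ones of smallest p without overlap, 10 in each direction. Selenov, a selenoprotein gene, stood at 3.83, 5.02, 5.11 and 5.34 CPM in Dp16 and at 1.67, 1.73, 1.64 and 0.841 CPM in WT (1.73, SE 0.33, adjusted p = 0.141). Calb2, encoding the calcium-binding protein calretinin of some interneurons, stood at 26.3, 20.1, 26.2 and 24.1 CPM in Dp16 and at 14.4, 12.1, 15.8 and 8.99 CPM in WT (0.94, SE 0.22, adjusted p = 0.34). For both genes the WT animal with the lowest level was replicate 4.

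Cd86, a costimulatory receptor gene that lies on chromosome 16 outside the segment, averaged 7.56 ± 1.36 CPM in Dp16 and 4.08 ± 0.745 CPM in WT (0.88, SE 0.19, adjusted p = 0.254). Slfn2, a Schlafen family gene of lymphoid and myeloid cells, averaged 6.97 ± 0.477 CPM in Dp16 and 3.78 ± 0.615 CPM in WT (0.89, SE 0.22), and Cd52, a surface glycoprotein gene of leukocytes, 5.13 ± 0.970 CPM in Dp16 and 2.52 ± 0.691 CPM in WT (1.00, SE 0.26). Cd52 is also a member of the list of reactive microglia genes. Homeostatic microglia markers had 6 of 13 higher, a median of -0.01 and a summed level of 484 to 567 CPM in Dp16 and 506 to 582 CPM in WT, and reactive microglia genes had 11 of 17 higher and a median of 0.20. EdgeR and DESeq2 called 0 members of either list. The other genes higher in Dp16 were Luzp2 (0.49), Maff (1.51), Bdh2 (1.64) and Cdkl3 (0.66), with adjusted p-values of 0.399 to 0.577 by edgeR's quasi-likelihood test.

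**Figure D4:**
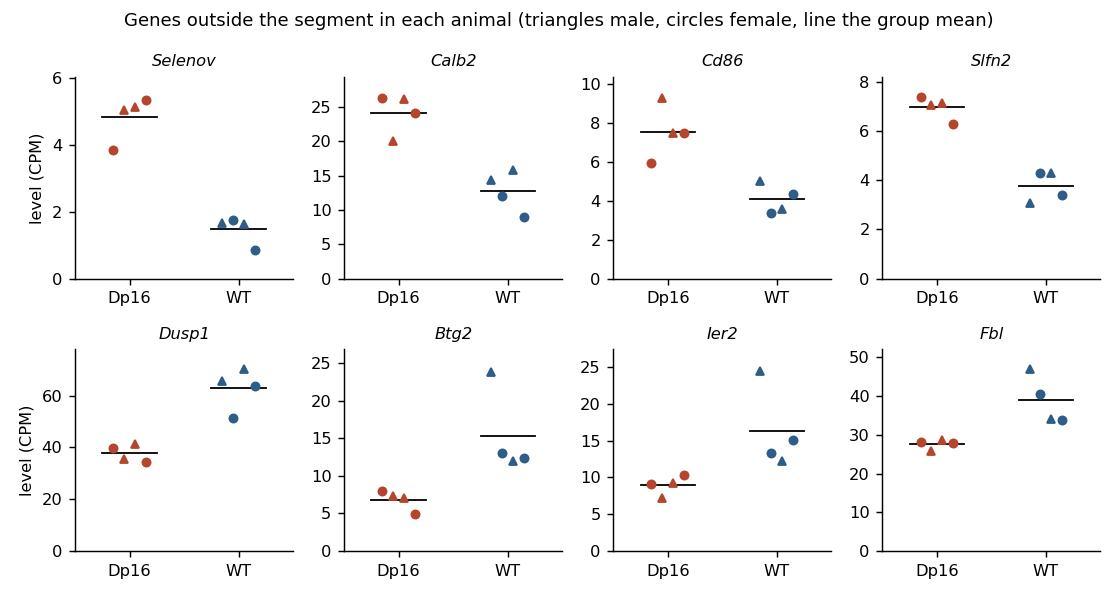
Level in CPM of 8 genes outside the segment in each Dp16 and WT animal; lines mark group means, circles are females and triangles males. Selenov, Calb2, Cd86 and Slfn2 lie higher in all 4 Dp16 animals and Dusp1, Btg2, Ier2 and Fbl lower; edgeR's adjusted test called 0 of the 8, and DESeq2 called 6, all but Ier2 and Fbl.

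Of the 10 genes of smallest p that were lower in Dp16 without overlap, 3 were immediate early genes, which neurons and other cells transcribe within minutes of stimulation. Dusp1, encoding a phosphatase that switches off MAP kinases, stood at 39.6, 35.5, 41.4 and 34.5 CPM in Dp16 and at 65.8, 51.3, 70.3 and 63.7 CPM in WT (-0.73, SE 0.14, adjusted p = 0.141). Btg2, an antiproliferative gene, stood at 7.95, 7.36, 6.99 and 4.90 CPM in Dp16 and at 23.9, 13.1, 11.99 and 12.4 CPM in WT (-1.15, SE 0.28, adjusted p = 0.399). Ier2 stood at 9.09, 7.24, 9.21 and 10.3 CPM in Dp16 and at 24.5, 13.3, 12.2 and 15.1 CPM in WT (-0.85, SE 0.22, adjusted p = 0.577). In Btg2 and Ier2 the highest WT animal, replicate 1, stood well above the other 3. The other genes lower in Dp16 were Knstrn (-2.02), Zbtb8a (-0.79), Dkkl1 (-0.60), Mcam (-0.59), Adgrd1 (-1.26), Fbl (-0.49), for the nucleolar methyltransferase fibrillarin, and Necab3 (-0.37). Necab3 lies on chromosome 2 (154544399 to 154558890), near nonagouti.

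Many immediate early genes are switched on through the cAMP response element, to which the factor CREB binds, and its full palindrome TGACGTCA stands in the promoters of the 2 members with the smallest p. The windows run from 250 bases before to 50 after the RefSeq start (GRCm38.p6), both on the minus strand, and the capitals mark the motif, which reads the same on both strands. That of Dusp1 is chr17:26508423-26508722 and that of Btg2 is chr1:134079106-134079405. The motif begins 143 bases before the start in Dusp1 and 166 bases before it in Btg2.
Dusp1: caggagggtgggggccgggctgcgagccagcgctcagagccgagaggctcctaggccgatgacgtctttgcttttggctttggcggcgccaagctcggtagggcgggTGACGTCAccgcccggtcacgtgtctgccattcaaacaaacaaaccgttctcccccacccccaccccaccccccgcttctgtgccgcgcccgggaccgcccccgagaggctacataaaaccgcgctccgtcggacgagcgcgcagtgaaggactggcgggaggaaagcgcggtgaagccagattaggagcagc
Btg2: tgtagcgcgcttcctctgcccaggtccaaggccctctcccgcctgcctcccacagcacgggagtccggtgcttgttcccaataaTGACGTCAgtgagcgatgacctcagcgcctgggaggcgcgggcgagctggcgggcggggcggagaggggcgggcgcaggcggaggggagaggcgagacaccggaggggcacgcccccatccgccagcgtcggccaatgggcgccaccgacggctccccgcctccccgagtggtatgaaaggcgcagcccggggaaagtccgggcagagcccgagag
Of all 32851 promoter windows, 1.79% hold the palindrome. Of the 29 immediate early genes tested, 24 have a window in the table, Ier2 not among them, and those of Dusp1 and Btg2 are the 2 that hold it; a match or its lack in a window is a description of the letters.

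As a list, 6 of the 29 immediate early genes stood higher in Dp16 and 23 lower, with a median log2 difference of -0.29, against 8571 higher and 8448 lower with a median of 0.00 over all genes tested. At an unadjusted p under 0.05, 10 stood lower, against 1.4% of all genes, and 0 higher, against 2.48%. In 4 genes every Dp16 animal was below every WT animal, against 0.852% of all genes. EdgeR's adjusted test called 0 of the list, DESeq2 called Dusp1 and Btg2, and the fit without a filter on low counts called 4, these and Junb and Nr4a1. The fit with the length trend removed called 0 of the list. Junb, an AP-1 subunit gene named after its values were seen and the fourth without overlap, stood at 70.6, 67.8, 70.8 and 43.7 CPM in Dp16 and 129, 74.2, 103 and 100 CPM in WT. The animals of both groups were spread widely in the list's median level relative to the WT mean, which was -0.31, -0.13, 0.07 and -0.63 in Dp16 replicates 1 to 4 and -0.02, -0.34, 0.11 and 0.32 in WT replicates 1 to 4. The groups overlapped, with Dp16 replicate 4 the lowest and WT replicate 4 the highest. Without Dp16 replicate 4 the list's median difference was -0.19, and without WT replicate 4 it was -0.22. It was -0.15 among males and -0.55 among females, the sex of both of these animals.

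Interferon-stimulated genes outside chromosome 16 were read beside their receptors. Of 38 tested, 30 stood higher in Dp16 and 8 lower, with a median log2 difference of 0.30. At an unadjusted p under 0.05, 5 stood higher, against 2.48% of all genes, and 0 lower. EdgeR's adjusted test called 0, as did the fit with the length trend removed. DESeq2 called Slfn2, and the fit without a filter on low counts called Ifi27l2a. Ifi27l2a, an interferon-induced gene of unclear function, stood at 2.27, 3.14, 2.68 and 4.403 CPM in Dp16 and at 0.476, 2.15, 0.666 and 0.316 CPM in WT (1.89, SE 0.54, adjusted p = 0.674). Irf7, the transcription factor that amplifies interferon production, averaged 3.77 ± 0.911 CPM in Dp16 and 1.81 ± 0.893 CPM in WT with overlap (1.02, SE 0.34). The list's median level relative to the WT mean was 0.33, 0.03, 0.40 and 0.22 in Dp16 animals and -0.03, 0.20, 0.05 and -0.06 in WT animals, so that Dp16 replicate 2 lay among the WT animals. Without Dp16 replicate 3 the median difference was 0.15.

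The partners that carry the receptors' signal showed no common direction. Of 13 tested genes of interferon and interleukin-10 signalling outside the segment, 8 stood higher and 5 lower, with a median of 0.16 and 0 called by edgeR or DESeq2. Irf9, the DNA-binding part of the complex that type I interferon activates, stood at 10.2, 10.3, 9.32 and 10.1 CPM in Dp16 and at 7.20, 8.84, 7.57 and 6.52 CPM in WT without overlap (0.41, SE 0.17, adjusted p = 1 by edgeR's quasi-likelihood test). For antigen presentation 10 of 13 stood higher, with a median of 0.33 and 0 called by edgeR or DESeq2. The list's median level relative to the WT mean was 0.20, 0.09, 1.04 and 0.18 in Dp16 animals and 0.11, -0.14, 0.25 and -0.03 in WT animals. Dp16 replicate 3 stood far above the rest, and the other 3 Dp16 animals lay within the WT range. B2m, the light chain of class I molecules, stood at 155, 135, 189 and 145 CPM in Dp16 and at 132, 122, 124 and 133 CPM in WT without overlap (0.29, SE 0.15).

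**Figure D5:**
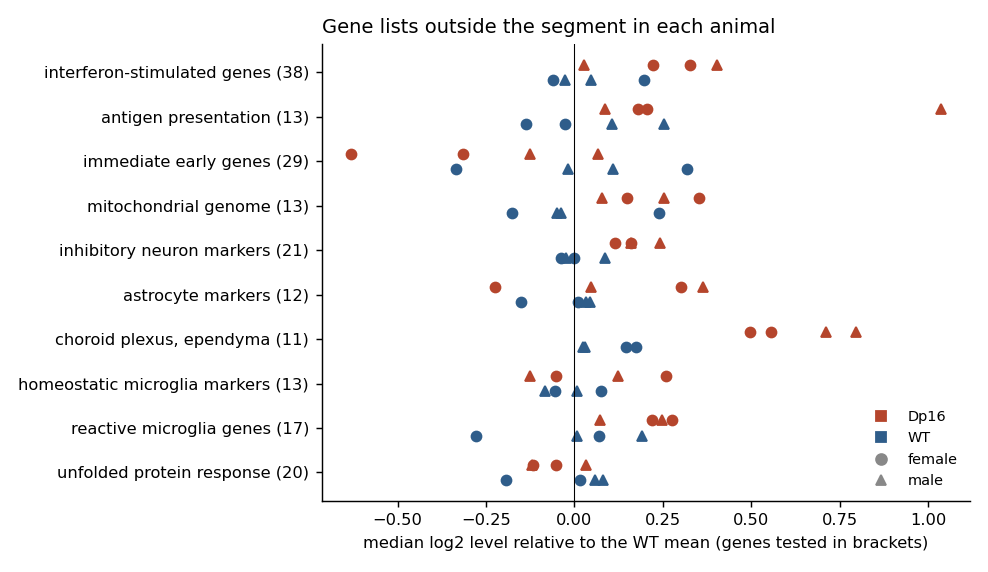
Median log2 level, relative to the WT mean, of the tested genes of 10 lists outside the segment in each animal, Dp16 in red above WT in blue, circles for females and triangles for males. The choroid plexus and inhibitory neuron lists show no overlap between the groups, and the immediate early list runs from -0.63 to 0.07 in Dp16 and from -0.34 to 0.32 in WT.

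EdgeR's adjusted test called 0 markers of other cell types. DESeq2 called Calb2 of the inhibitory neuron list, and the fit without a filter on low counts called Calb2, Clec7a of the reactive microglia list and Ttr of the choroid plexus list. With the length trend removed, 0 members of each of these lists were called. Of 21 inhibitory neuron markers, 18 stood higher in Dp16 with a median of 0.13, and Npy, a neuropeptide gene of interneurons, averaged 163 ± 18.7 CPM in Dp16 and 130 ± 4.01 CPM in WT without overlap (0.33, SE 0.10, adjusted p = 0.778). Their summed level was 2597 to 2753 CPM in Dp16 and 2427 to 2778 CPM in WT. Of 12 astrocyte markers, 11 stood higher with a median of 0.15, and of 15 excitatory neuron markers 9, with a median of 0.05. The largest median was that of choroid plexus and ependyma, 0.45, with 9 of 11 tested markers higher. Its summed level was low and uneven, 38.2 to 130 CPM in Dp16 and 31.3 to 48.0 CPM in WT. Prlr, the prolactin receptor gene, averaged 0.828 ± 0.275 CPM in Dp16 and 0.117 ± 0.171 CPM in WT, and Kl, encoding klotho, 1.39 ± 0.331 CPM in Dp16 and 0.426 ± 0.219 CPM in WT, both without overlap. Clec7a, a receptor gene of reactive microglia, averaged 1.45 ± 0.299 CPM in Dp16 and 0.575 ± 0.341 CPM in WT (1.33, SE 0.37). Transcripts of the mitochondrial genome stood higher for 11 of 13 genes with a median of 0.24, beside the higher mitochondrial share of Dp16 libraries given above. mt-Co1, the most abundant of them, stood at 30559, 24508, 27724 and 25751 CPM in Dp16 and at 22685, 23425, 23071 and 23782 CPM in WT.

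The comparison was also taken apart by sex. The segment's median was 0.56 (1.47-fold) between the 2 Dp16 and 2 WT males, with 94 of 105 genes higher, and 0.50 (1.41-fold) between the 2 Dp16 and 2 WT females, with 91 higher. A test of whether the Dp16 difference itself differed between males and females called 0 of 17019 genes (0%) with edgeR's quasi-likelihood test. At an unadjusted p under 0.05 it gave 707 genes, 4 of them in the segment, and DESeq2 called 1 gene.

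The 8 animals with the amyloid transgenes gave a separate reading of the same segment. Reads on segment genes took 0.957 to 0.994% of the 5xFAD-Dp16 libraries and 0.625 to 0.676% of the 5xFAD libraries, again without overlap. The median log2 difference of the 105 genes between 5xFAD-Dp16 and 5xFAD was 0.51, or 1.43-fold, with 89 higher. Of the 105, 81 stood higher and 3 lower both here and in Dp16 against WT. The adjusted test called 0 genes (0%) in 5xFAD-Dp16 against 5xFAD, where 4049 of the 17019 tested had an unadjusted p under 0.05. It also called 0 genes for a difference between the 2 effects of the duplication, with 1591 of the 17019 at an unadjusted p under 0.05. Of these 1591, 18 were among the 105 segment genes. Sex is not balanced there, since all 4 5xFAD-Dp16 mice were male and 2 of the 5xFAD mice were female.

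The estimated differences of segment genes had no common order between the 2 pairs of genotypes. Across the 59 segment genes at 10 CPM or more, the log2 differences of the 2 comparisons had Pearson's r of 0.03 and Spearman's rho of -0.07, although the genes within a comparison share libraries and are no independent points. The differences spread more between 5xFAD-Dp16 and 5xFAD (SD 0.46) than between Dp16 and WT (SD 0.22), and followed gene length there (rho 0.69) but not in Dp16 against WT (rho -0.01). With the length trend removed from both, r was -0.01 and the SDs were 0.33 and 0.22. The SD of 0.22 in Dp16 against WT covers the 59 genes. The median SE of 0.25 covers all 105, with the 46 under 10 CPM, so the SD cannot be set against it. Among the 59, the SE in Dp16 against WT was 0.12 for Jam2, 0.11 for Dyrk1a and 0.33 for Itsn1. Error in the estimates can hide a shared order and its part was not measured, so the low r does not settle whether there is one. Jam2 had 0.68 (SE 0.13) in 5xFAD-Dp16 against 5xFAD beside 0.79 in Dp16 against WT, and Dyrk1a 0.72 beside 0.61. Morc3 had 0.25 (SE 0.13) beside 0.81, Hspa13 0.16 beside 0.73 and Atp5o 0.01 beside 0.50, while Itsn1 had 1.34 beside 0.67.

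Genes outside the segment were set beside each other in the same way. Of the 10 named as higher in Dp16 than in WT, 6 were also higher in 5xFAD-Dp16 than in 5xFAD, with nonagouti at 4.57 and Selenov at 0.32, while Cd86 (-0.84), Cd52 (-0.75), Slfn2 (-0.51) and Bdh2 (-0.45) had the opposite sign. Of the 10 named as lower, 7 were also lower, but Dusp1 had 0.29, Ier2 0.55 and Adgrd1 0.13. The median of the immediate early genes was 0.48 and that of the interferon-stimulated genes -0.17 in 5xFAD-Dp16 against 5xFAD, each opposite in sign to its median in Dp16 against WT.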

How the data were processed

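Polyadenylated RNA of brain cortex was sequenced from 16 mice. Per the labels' protocols, libraries were strand-specific and read as paired ends on a NovaSeq instrument. The tools named in the submitters' processing notes are bcl2fastq, HTSeq 0.6.1, FastQC 0.11.5, SAMtools 1.5 and HISAT2 2.1.0, with build GRCm38; the strand setting of the counting is not given in the sources used here, so overlapping genes on opposite strands may share reads. The authors deposited raw read counts for 55385 genes with no normalization. The authors also deposited RPKM values, used here only for gene lengths: 100.0% of non-zero values fitted count, length and total within 0.1%. Coordinates came from Gencode M21, joined by identifier (55144 matched, 241 not). Promoter sequences came from RefSeq (GRCm38.p6).

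Genes were kept by edgeR's filterByExpr (10 counts, or 0.570 CPM, in at least 4 libraries), which left 17019, and scaled by TMM. CPM are counts divided by the scaled library size. A robust quasi-likelihood model with a mean per genotype and a sex term was fitted to all 16 libraries (edgeR 4.0.16, R 4.3.3; common biological coefficient of variation 0.266). Tests were two-sided, and p-values were adjusted by Benjamini-Hochberg across the 17019 genes with 0.05 as threshold. Intervals are 95% and unadjusted. P-values set a difference against the spread between animals, which was estimated from all 16 libraries and moderated across genes. Intervals against a floor of 3 counts cover counting error only. Within-sex contrasts came from a model with a mean per genotype and sex. DESeq2 1.42.0 was an alternative. Lists were described by counts and medians, without a set test.

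Named genes were those past the threshold, the up to 4 most abundant of each segment group, the 5 highest and lowest segment differences, the nearest outside genes, the 10 higher and 10 lower protein-coding outside genes of smallest p without overlap, and the up to 3 of smallest p per list. The segment, groups, lists and rules were chosen with earlier results of these data known. Figures were drawn with matplotlib 3.10.9.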

Additional observations from a re-analysis of the deposited data

Results flagged for a closer look

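In groups of 4 animals, 1 animal stood apart from the other 3 by Dixon's test in 8 of the 176 sets examined, or 4.55%. Chance alone gives about 1 in 20. The sets covered levels of genes and measures of the libraries, and all 8 were of genes. Dp16 replicate 1 was apart in Mcam, at 14.2 CPM, above the other Dp16 animals. Dp16 replicate 2 was apart in mt-Nd3, at 139 CPM, the highest of its group. WT replicate 4 was apart in 4 genes: it was the lowest WT animal for Il10rb at 5.26 CPM, for Hmgn1 at 74.0 CPM and for Selenov at 0.841 CPM, and the highest for Maff at 3.05 CPM. WT replicate 1 was the highest WT animal for Btg2 at 23.9 CPM. WT replicate 3 held the only WT reads of Gm31258, at 0.121 CPM, a segment gene named after its values were seen.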

How the results depend on the processing

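The segment's median log2 difference lay between 0.50 and 0.59 under all 17 alternatives, and the number of calls did not hold. Against 3 genes called, 2 in the segment and 1 outside, DESeq2 called 35 (19 and 16), no filter on low counts 43 (16 and 27) and removal of the length trend 16 (14 and 2). The 8 libraries alone, males alone and females alone each called 0 (0 and 0). Leaving out 1 animal gave 0 to 2 calls (0 to 1 in the segment, 0 to 1 outside). The sex interaction had 0 calls, against 1 with DESeq2, 14 without the filter and 0 to 1 without 1 animal. Ifnar1, Jam2, Morc3, Tmem50b, Selenov and nonagouti were called under DESeq2, no filter and length removal alike. Without the filter 159 segment genes stood higher, against 94. Those without overlap numbered 37 to 50 without 1 animal, but leaving out an animal cannot lower this count, so it checks nothing. This count was added after seeing the data, as were that of segment genes higher, the list medians and calls, and the length-adjusted correlation. Same-numbered Dp16 and WT animals did not deviate together (r -0.03, 0.05, -0.01 and -0.24), so the numbers pair nothing; with the replicate block 0 genes were called (0 and 0), and Setd4 had 0.017. Of 1374 values of 81 named genes, 1264 kept their sign and side of the threshold, 49 passed only under the alternative, 29 lost the call and 32 changed sign. The sign changed among males for Urb1 (0.016), Gbe1 (0.11), Robo1 (0.14) and Robo2 (0.072), and among females for Gm9843 (0.10), Setd4 (0.0084), A630089N07Rik (0.98) and Olig2 (-0.0086). Leaving out 1 animal gave a range across 0 for Mx2 (-0.10 to 0.55), Olig2 (-0.085 to 0.23), Adamts1 (-0.56 to 0.013), Urb1 (-0.52 to 0.17), Gm9843 (-0.31 to 0.0055), Setd4 (-0.36 to 0.21), Gbe1 (-0.23 to 0.0014), Robo1 (-0.39 to 0.14), Robo2 (-0.23 to 0.015), B230307C23Rik (-0.14 to 0.50) and A630089N07Rik (-0.36 to 0.11). The cause of these changes was not tested.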
